A study of Mus musculus with 3 samples.

Results

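Windows of 1 kb that were at least 50% methylated by TAPSβ and still read at least 12% in CAPS were collected from genomic DNA (gDNA) of E14 mouse embryonic stem cells (mESCs), an established pluripotent line. The windows started at multiples of 1000 bp on the 19 autosomes. Each needed 10 or more CpG cytosines covered in all 3 libraries, 80 or more CAPS and 80 or more PS base calls, a mean TAPSβ depth of at most 26 and a PS level of at most 1%. A level is the number of base calls read as T over all base calls, summed over the cytosines of the window. Of 2365824 autosomal windows with a CpG, 1231492 met every criterion apart from the CAPS level, and these are called candidate windows. Among the candidates 2526 reached the CAPS threshold, which is 0.205% of them, and these are the members.

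The cells were grown in 1 condition, on gelatin in medium with serum (FBS), LIF and the inhibitors PD0325901 and CHIR99021. Their gDNA went into 1 TAPSβ, 1 CAPS and 1 PS library. There were no replicates, no untreated control and no second cell type, so no test between groups was possible. All intervals are exact (Clopper-Pearson) binomial 95% intervals. They cover counting error only, and several cytosines called on 1 read count as if independent. The libraries held between 377288829 and 511365019 base calls at CpGs, with a median depth of 9 to 13 per cytosine. Their levels over all CpGs were 57.5% in TAPSβ, 3.14% in CAPS and 0.246% in PS, and none was corrected for incomplete conversion or false conversion. At the gene-level starts of genes that mark pluripotent cells, TAPSβ was 0 of 1076 calls for Pou5f1, 0.110% for Sox2, 0.324% for Zfp42, 9.80% for Nanog and 41.1% for Esrrb.

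5-methylcytosine (5mC) is set by DNA methyltransferases on both strands of CpG sites. TET dioxygenases oxidize it to 5-hydroxymethylcytosine (5hmC) and further to 5-formylcytosine (5fC) and 5-carboxylcytosine (5caC), which are removed by the glycosylase TDG and base excision repair. In embryonic stem cells Tet1 and Tet2 are abundant, and 5hmC is known from gene bodies, enhancers and the borders of unmethylated DNA. TAPSβ reads 5mC as T, because 5hmC is first blocked with glucose. CAPS reads 5hmC as T after chemical oxidation to 5fC, and PS reads 5fC and 5caC as T. A window of the kind collected here therefore reached the threshold set for 5mC in TAPSβ and the threshold set for 5hmC in CAPS. It read little 5fC or 5caC in PS. The paper lists 5fC and 5caC as read as T in TAPSβ and CAPS too. These levels come from the same base calls that chose the window.

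Sequences of strong members show how the CAPS signal lay along the DNA. Members were ranked by the lower bound of the interval of their CAPS level. For the windows of rank 2, 3 and 5, the 250 bases that held most T calls of CAPS are printed from the plus strand of NCBIM37 (mm9). Capitals mark the CpGs with at least 1 T call on either strand. The stretch of rank 4 overlapped an annotated exon and is not printed, and the sequence of rank 1 is not reported here.
Pvt1 window, chr15:61906286-61906535: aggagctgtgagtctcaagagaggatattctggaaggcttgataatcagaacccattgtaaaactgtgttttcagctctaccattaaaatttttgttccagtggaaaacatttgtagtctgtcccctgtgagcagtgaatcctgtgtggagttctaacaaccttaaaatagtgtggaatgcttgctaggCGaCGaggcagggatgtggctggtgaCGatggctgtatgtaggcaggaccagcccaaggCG
Chromosome 13 window, chr13:16923649-16923898: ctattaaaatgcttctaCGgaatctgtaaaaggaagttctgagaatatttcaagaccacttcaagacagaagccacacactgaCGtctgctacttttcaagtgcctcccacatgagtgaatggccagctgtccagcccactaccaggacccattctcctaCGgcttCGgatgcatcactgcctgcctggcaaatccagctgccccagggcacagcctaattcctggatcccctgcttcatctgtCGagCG
Fat1 window, chr8:46041575-46041824: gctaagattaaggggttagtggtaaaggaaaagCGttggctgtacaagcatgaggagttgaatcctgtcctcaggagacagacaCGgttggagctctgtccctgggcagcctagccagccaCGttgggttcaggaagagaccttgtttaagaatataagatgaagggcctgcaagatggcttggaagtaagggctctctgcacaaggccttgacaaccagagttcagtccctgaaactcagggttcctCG

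In all 3 stretches every CpG carried CAPS signal: 4 of 4 CpGs in Pvt1, 6 of 6 on chromosome 13 and 4 of 4 in Fat1. The Pvt1 stretch, within a long intergenic noncoding RNA gene next to Myc, had 21 T calls of 81 (25.9%), and its window had 33 T calls on 12 of its 16 CpG cytosines. The chromosome 13 stretch had 28 of 128 (21.9%), and the Fat1 stretch, in the first intron of a gene for a large protocadherin, had 18 of 90 (20%). The windows and the stretches were chosen on these calls, and 1 T call was enough to mark a CpG, so this describes how they look and is no finding.

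The levels of the members are described here and not tested, since the rule chose them on these reads. Pooled over members, CAPS was 13.3% (53918 of 406063 calls, interval 13.2 to 13.4%) and TAPSβ was 57.2%. The CAPS level of a member ran from 12% to 22.5% with a median of 12.96%, and 1301 members lay under 13% while 277 reached 15% and 29 reached 18%. The TAPSβ level ran from 50% to 82.4% with a median of 56.6%, and 1726 members lay under 60% while 106 reached 70%. The sum of both levels had a median of 70.05%. CAPS made up a median of 18.8% of that sum, from 13.3% to 27.6%. More than 50% of members were under 13% in CAPS, and more than 50% were under 60% in TAPSβ.

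A member held a median of 148 CAPS calls, from 80 to 475, so the error of a single window was wide. The lower bound of the interval was above 6% in 2523 members and above the threshold of 12% in 27. Just inside the threshold, a window on chromosome 1 (chr1:34109001-34110000) had 36 T calls of 300 (12%). Just outside it, another (chr1:74426001-74427000) had 35 of 292 (11.99%). There were 1301 members from 12% to under 13%, and 2461 candidates from 11% to under 12%. The threshold cut through a continuous distribution.

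PS levels are given as a description, since the rule used them. No T call at all was seen in 1857 members (73.5%), and the pooled PS level was 0.164% (745 of 454480 calls, interval 0.152 to 0.176%). Comparison windows were all 1228966 candidates with CAPS under 12%, weighted so that their TAPSβ level (classes of 5 points) and their number of CpG cytosines (6 classes) matched those of the members. Their weighted PS level was 0.143%, just below the interval of the members, and the rule held PS at 1% or less in both sets. Both levels lay below the false-positive rate that the paper gives for PS on its unmodified spike-in. Whether the difference between them reflects 5fC or 5caC was not tested. Of 44392 windows left out for a PS level above 1%, 501 reached 12% in CAPS. This was a larger share than the 0.205% (2526 of 1231492) among candidates, in sets not matched for TAPSβ or CpG number. Whether the deposited counts leave out known variants is not stated, and why the share was larger was not tested.

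Members became rare as TAPSβ rose. The shares given here are a description, since the rule used TAPSβ, CAPS and the number of calls. The part of counting error in them was not tested. They made up 1.61% of candidates at 50 to under 55% TAPSβ, 0.693% at 55 to under 60%, 0.287% at 60 to under 65% and 0.0288% at 70 to under 75%. Only 3 of 125791 candidates at 80% or more were members. By CpG number their share was 0.234% at 10 to 14 CpG cytosines and 0.244% at 15 to 19, and then fell to 0.193% at 20 to 29 and 0.0579% at 40 to 59. With CpG number the number of reads rises, and the share fell from 0.308% at 80 to under 120 CAPS calls to 0.0428% at 300 or more. By chromosome the lowest share was 0.144% (chromosome 8) and the highest 0.241% (chromosome 9).

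**Figure D1:**
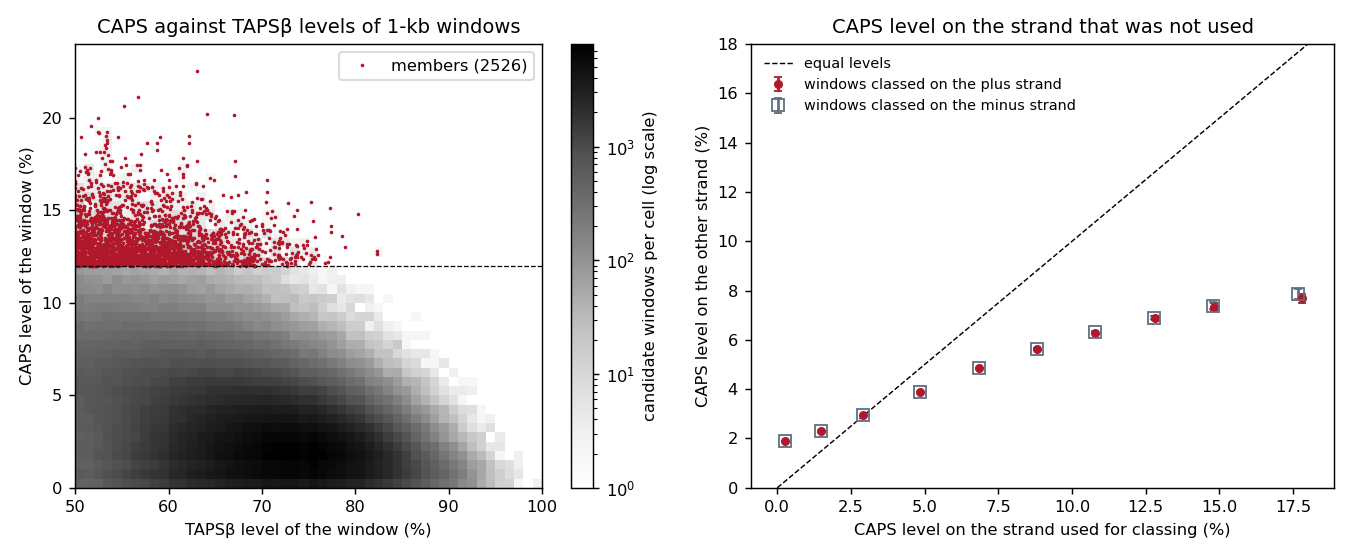
Left: CAPS level (%) against TAPSβ level (%) of candidate windows, as counts per cell on a log gray scale, with the 2526 members as red points above the dashed threshold of 12%. Right: pooled CAPS level (%) on the strand that was not used, against the level on the strand by which windows were classed, with exact 95% intervals; the points lie on the line of equal levels at 2 to under 4% and fall below it at higher levels, reaching 7.68% and 7.85%.

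To allow for the choice on CAPS, windows were chosen by the CAPS calls of 1 strand and measured on the other, with at least 40 calls on each. By the plus strand 7225 of 1191537 candidates (0.606%) were chosen. Their level was 13.8% on that strand and 7.07% (45780 of 647374 calls, interval 7.01 to 7.13%) on the minus strand, where comparison windows of equal TAPSβ and CpG number had 3.96%. By the minus strand 7215 (0.606%) were chosen, with 13.7% on that strand, 7.11% on the plus strand and 3.98% in the comparison. The ratio was 1.79 in both directions. Of the windows chosen on the plus strand, 713 (9.87%) also reached 12% on the minus strand. Whether both strands of 1 DNA molecule were sequenced was not tested.

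The level on the unused strand rose in every class with the level on the strand used. It was 1.90% where the plus strand had under 1%, 3.89% where it had 4 to under 6%, 5.63% at 8 to under 10%, and 7.68% (interval 7.49 to 7.88%) at 16% or more. Windows with a high CAPS reading on 1 strand thus had a raised but lower level on reads that did not choose them. Members chosen on both strands together are described with their own, higher, readings.

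The levels of the strands in members are also a description, since calls of both strands chose the windows. At least 8% was reached on each strand in 2236 members (88.5%), and at least 12% on each in 755 (29.9%). In 159 members the strands differed by 3 to 1 or more in T calls. A median of 65% of the covered cytosines of a member had a T call in CAPS, and the single cytosine with most T calls held a median of 20% of them. Within CpG pairs, the minus-strand level in members was 10.9% where the plus-strand cytosine had no T call, 13.3% where it had 1 and 15.8% where it had 2 or more. In comparison windows the same levels were 2.58%, 3.93% and 6.05%, so T calls on the partner strand went with a higher level in both sets.

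Of the 12 members of highest rank, 7 had their middle in an intron of a coding gene. First was a window in an intron of Zfp532, a zinc finger gene on chromosome 18, with 32 T calls of 142 (22.5%, interval 15.95 to 30.3%) and 63.0% TAPSβ. Its neighbours on either side read 9.09% and 6.91% in CAPS. The Pvt1 window had 33 of 160 (20.6%), with 28.9% on the plus and 11.7% on the minus strand, and its neighbours read 4.76% and 4.33%. The Zfp532 window therefore lay in DNA that was raised on both sides, while the neighbours of the Pvt1 window were lower.

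The chromosome 13 window lay between genes, 819816 bp from the nearest coding start, that of Inhba. It had 36 of 187 (19.3%) at 52.5% TAPSβ, and the 2 windows before it had TAPSβ levels of 8.24% and 3.47%. A window over an exon of Slc25a36, a mitochondrial nucleotide carrier gene, had 22 of 104 (21.2%), and both of its neighbours were high, at 13.8% (19 of 138) and 13.5% (19 of 141). Of its T calls 12 came from 1 CpG, which read 7 of 14 on the plus and 5 of 9 on the minus strand. A single CpG thus held more T calls than all others of this window together.

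In the Fat1 window 36 of 189 calls (19.05%) were T, and the highest cytosine read 6 of 8. The window of Smad4, the common mediator of TGF-beta and BMP signals, had 23 of 115 (20%) in the first intron. Windows in Cacng2 (21 of 104), Ankrd11 (26 of 137), Ttc7b (24 of 125) and Slc45a3 (34 of 195) were also in introns. The intergenic ones were near Ndrg1 (26 of 129, 53298 bp away) and on chromosome 13 near Gm17582 (30 of 162). None of the 12 had a PS level above 0.901%, and all 12 had TAPSβ between 50.6% and 67.1%.

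**Figure D2:**
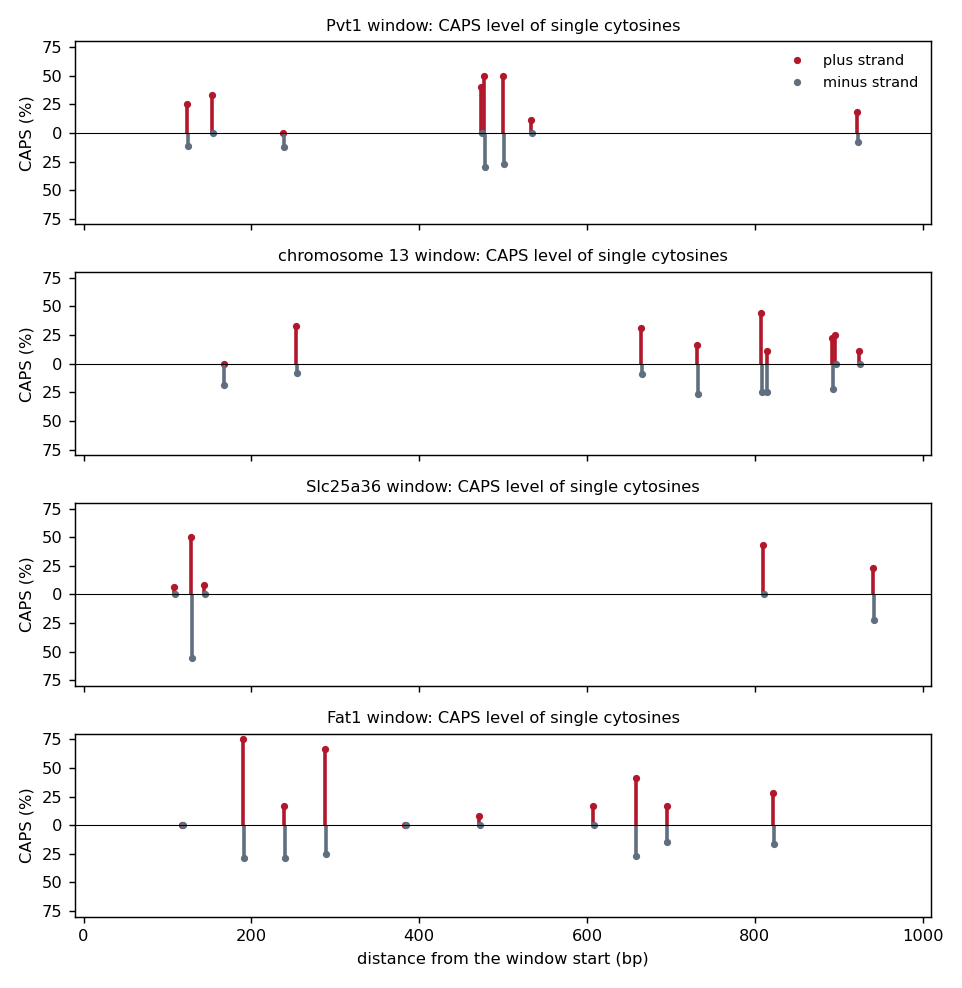
CAPS level (%) of each CpG cytosine against its distance (bp) from the window start, with the plus strand drawn upward and the minus strand downward, for the Pvt1, chromosome 13, Slc25a36 and Fat1 windows. Signal was spread over several CpGs of both strands in Fat1 and on chromosome 13, and was concentrated on 1 CpG in Slc25a36.

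Members lay more often in introns and less often far from genes than comparison windows of equal TAPSβ and CpG number. The middle of 1249 members (49.4%, interval 47.5 to 51.4%) was in an intron of a coding gene, against 40.3% in the comparison, a ratio of 1.23. The ratio was above 1 on 19 of 19 autosomes, from 1.03 to 1.59. First introns held 500 members (19.8% against 14.9%, ratio 1.33) and later introns 749 (29.7% against 25.4%, ratio 1.17). Intergenic DNA held 1119 members (44.3% against 54.1%, ratio 0.819, below 1 on all 19 autosomes). Both contrasts depended on the windows allowed: with 200 or more CAPS calls the intron ratio was 1.03 (interval 0.939 to 1.12) and the intergenic ratio 1.01, and with 20 or more covered cytosines they were 1.04 (0.963 to 1.11) and 0.992.

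Distance from starts of coding transcripts showed where the lack lay. Within 5 kb of a start were 12.1% of members against 12.9%, with an interval of 10.8 to 13.4% that includes the comparison. This result turned on the setting: the ratio of 0.935 became 0.613 (interval 0.478 to 0.770) with 200 or more CAPS calls, 0.639 (0.522 to 0.772) with 20 or more covered cytosines and 1.20 (1.07 to 1.33) in classes of the sum of TAPSβ and CAPS. From 5 to 20 kb away were 31.0% against 24.0%, and from 20 to 100 kb 41.0% against 33.5%. Beyond 100 kb were 403 members, 15.95% against 29.5%, a ratio of 0.540 that was below 1 on all 19 autosomes. Intergenic DNA within 20 kb of a start held 15.4% against 14.7%, and intergenic DNA beyond 100 kb 10.7% against 22.3%, so the difference between genes was in the remote part.

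The other places held few members. Coding exons held 26 (1.03% against 1.17%), untranslated regions at the 3′ end 46 (1.82% against 1.26%), those at the 5′ end 2, and the 500 bp on either side of a start 23 (0.911% against 0.764%). A cluster of CpGs lay within 10 kb of 21.2% of members and 21.5% of comparison windows. At least 1 CpG whose surrounding 32 bases occur more than once in the genome was found in 461 members (18.3% against 23.6%, below 1 on all 19 autosomes).

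**Figure D3:**
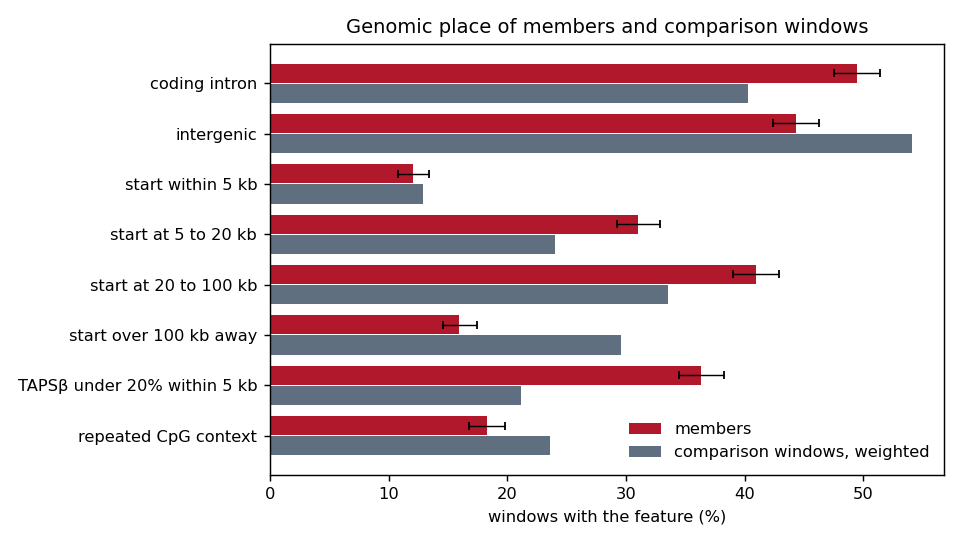
Share of windows (%) with each feature, for members (red, with exact 95% intervals) and for comparison windows weighted to equal TAPSβ and CpG number (gray). Members exceed the comparison in coding introns (49.4% against 40.3%) and near windows under 20% TAPSβ (36.3% against 21.2%), and fall below it over 100 kb from a start (15.95% against 29.5%).

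The contrasts for introns and remote DNA were larger where CpGs were few. Among members with 10 to 14 CpG cytosines the intron share was 49.8% against 34.9% (ratio 1.43), at 15 to 19 it was 49.1% against 40.3%, at 20 to 29 it was 48.8% against 45.8%, and at 30 or more 51.04% against 49.8%. The members' own share stayed between 48.8% and 51.04%, while that of the comparison rose with CpG number. The lack beyond 100 kb was smaller with 200 or more CAPS calls and with 20 or more covered cytosines, with ratios of 0.736 and 0.843. Near starts the sign changed with CpG number: within 5 kb were 12.2% of members against 9.63% at 10 to 14 CpG cytosines, 11.7% against 16.3% at 20 to 29, and 10.9% against 18.9% at 30 or more.

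The shares in introns and in remote DNA changed along the CAPS level below the threshold of 12% as well. At equal TAPSβ and CpG number, the intron share was 30% in candidates with CAPS under 1%, 39.7% at 2 to under 4%, 49.0% at 6 to under 8% and 51.3% at 10 to under 12%. The share beyond 100 kb from a start fell from 45.4% to 17.7% and 16.3% over the first, the 6 to under 8% and the 10 to under 12% class. From 6% upward the intron share lay between 49.0% and 51.3%. The share within 5 kb of a start had no single direction: it rose from 7.98% under 1% to 15.8% at 4 to under 6% and was 12.1% in members. Windows chosen on the plus or the minus strand had intron ratios of 1.24 and 1.21, so the difference did not need both strands. The mean GC content rose along the same classes from 40.9% to 45.3%. At equal GC content as well the intron ratio was 1.19, and the part of GC content in the result was not tested further.

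DNA around the members also had more CAPS signal, in reads that played no part in the choice. The windows 1 to 2 kb beyond either edge read 4.66% (47029 of 1009931 calls, interval 4.62 to 4.70%) against 3.28% around comparison windows, a ratio of 1.42 that was above 1 on all 19 autosomes. Adjacent windows, which can share DNA fragments with the member, read 5.39% against 3.50%. The ratio fell to 1.34 at 4 kb and 1.24 at 9 kb, and was 1.20 at 29 kb and 1.17 at 39 and 49 kb. The signal around members was thus a local peak on a raised level with no end within 49 kb, the farthest distance measured.

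TAPSβ was lower around members, at 53.1% against 56.8% in adjacent windows and 51.5% against 53.7% at 1 to 2 kb. PS was 0.203% around members at 1 to 2 kb and 0.198% around comparison windows, within the interval of 0.195 to 0.212%. A neighbour within 2 windows that read 8% or more, with 80 or more calls, was found for 605 of the 2462 members with a neighbour of that depth (24.6%) and for 9.33% of such comparison windows. One that read 12% or more was found for 107 of the 2462 (4.35%) against 1.19%.

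**Figure D4:**
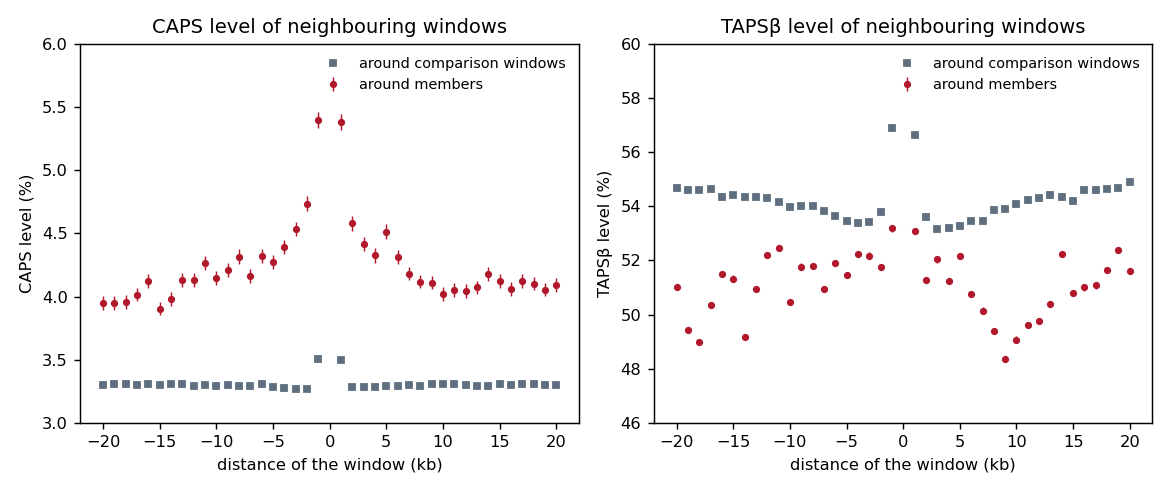
CAPS level (left, %, axis from 3 to 6) and TAPSβ level (right, %, axis from 46 to 60) of windows up to 20 kb on either side of members (red, exact 95% intervals) and of comparison windows (gray, weighted). CAPS peaks next to members at 5.39% against 3.50% and stays above the comparison at every distance drawn, while TAPSβ is lower around members.

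Members lay near each other more often than comparison windows lay near members, though few touched. Another member lay within 10 kb of 203 members (8.04%, interval 7.01 to 9.17%), and a member lay within 10 kb of 2.69% of comparison windows, a ratio of 2.99 that was above 1 on 17 of 19 autosomes. This share was 1.44% with 200 or more CAPS calls, 2.64% with 20 or more covered cytosines and 2.89% at a CAPS threshold of 15%, where there are fewer members to meet. Directly next to another were 40 members (1.58%, interval 1.13 to 2.15%), as 20 pairs and never 3 in a row, against 0.331% of comparison windows next to a member, a ratio of 4.79. Linked by gaps of at most 10 kb, the 203 members formed 99 groups, of which 5 held 3 members and none held more.

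Windows of low methylation were frequent neighbours. A window with TAPSβ under 20% lay within 5 kb of 918 members (36.3%, interval 34.5 to 38.3%) and of 21.2% of comparison windows, a ratio of 1.72, and within 2 kb of 19.9% against 10.43%. Both ratios were above 1 on all 19 autosomes. When the low window was more than 1 kb from every coding start the shares were 32.6% and 15.5% (ratio 2.10), and when it was at a start they were 7.403% and 8.95% (ratio 0.827). Members were thus more often near low methylation away from starts, and not near low methylation at starts. In windows of 10 to 14 CpG cytosines the ratio for low windows away from starts was 3.00, and at 30 or more it was 1.39. With 200 or more CAPS calls the ratio for all low windows within 5 kb was 1.23.

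The sequence of the members was searched for short motifs of factors of the pluripotency network, on both strands and in both sets. TCAAGGTCA, the extended single site of the orphan nuclear receptors Esrrb and Nr5a2, was in 4.71% of members (interval 3.92 to 5.61%) against 2.89% of comparison windows at equal TAPSβ and CpG number and 2.23% of all candidates. The ratio was 1.63, and 1.46 at equal GC content, with the members higher on 16 of 19 autosomes. Along the CAPS classes the share rose from 1.51% under 1% to 4.08% at 6 to under 8% and 4.83% at 10 to under 12%. With 20 or more covered cytosines the ratio was 1.20, and with 200 or more CAPS calls 1.17, both with intervals that include 1.

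The CTCF consensus was rarer in members, and the remaining motifs had ratios nearer to 1. CCACACCC, of Klf factors, was in 9.30% against 7.84%, which at equal GC content was a ratio of 1.01. The octamer ATGCAAAT of Pou5f1 was in 6.73% against 7.93% (ratio 0.985 at equal GC content), ACAATGG of Sox factors in 15.8% against 15.2%, TTCCNGGAA of Stat factors in 2.65% against 2.82%, GGAATGT of Tead factors in 13.3% against 13.6% and AGATAAG of GATA factors in 12.7% against 13.6%. A strict consensus of the insulator protein CTCF was in 1 member (0.0396%, interval 0.00100 to 0.220%) against 0.320%, a ratio of 0.124. Its share was highest, 0.522%, in candidates with CAPS of 1 to under 2%, and fell with every higher class.

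TCAAGGTCA was singled out after its share had been seen. CAPS and TAPSβ both changed towards it. In members with a match, cytosines within 50 bp read 17.97% in CAPS (301 of 1675 calls, interval 16.2 to 19.9%) and 41.5% in TAPSβ, while those over 400 bp away read 12.9% and 60.9%. Comparison windows, unweighted here, showed the same shape. They read 5.89% in CAPS and 58.3% in TAPSβ within 50 bp, and 3.21% and 69.5% over 400 bp away. The rule used the calls of both sets, with CAPS under 12% in the comparison, so these profiles are a description. Neither the rise in CAPS nor the fall in TAPSβ towards the match was particular to this motif. Around ATGCAAAT, TAPSβ was 51.3% within 50 bp and 58.5% beyond 400 bp in members, and 64.4% and 69.9% in comparison windows. TAPSβ was also lower near the other motifs measured in this way in both sets, apart from AGATAAG. That motif read 57.7% and 56.9% in members, and 70.1% and 69.5% in comparison windows. Around ATGCAAAT CAPS was 16.1% within 50 bp and 11.48% beyond 400 bp in members, and 3.59% and 2.76% in comparison windows. For CCACACCC the levels were 14.9% and 13.1% in members, and 4.35% and 3.20% in comparison windows. Those for ACAATGG were 14.9% and 12.4%, and 3.43% and 2.87%. The rise was thus seen for these motifs in both sets. TTCCNGGAA gave 15.7% and 12.8% in members, and 3.38% and 3.07% in comparison windows. GGAATGT gave 13.996% and 13.3%, and 3.31% and 3.03%. For TTCCNGGAA and GGAATGT the intervals near and far overlapped in members. In CAPS, AGATAAG alone among these motifs was lower near the match, with 11.8% and 13.5% in members, and 2.77% and 2.98% in comparison windows.

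**Figure D5:**
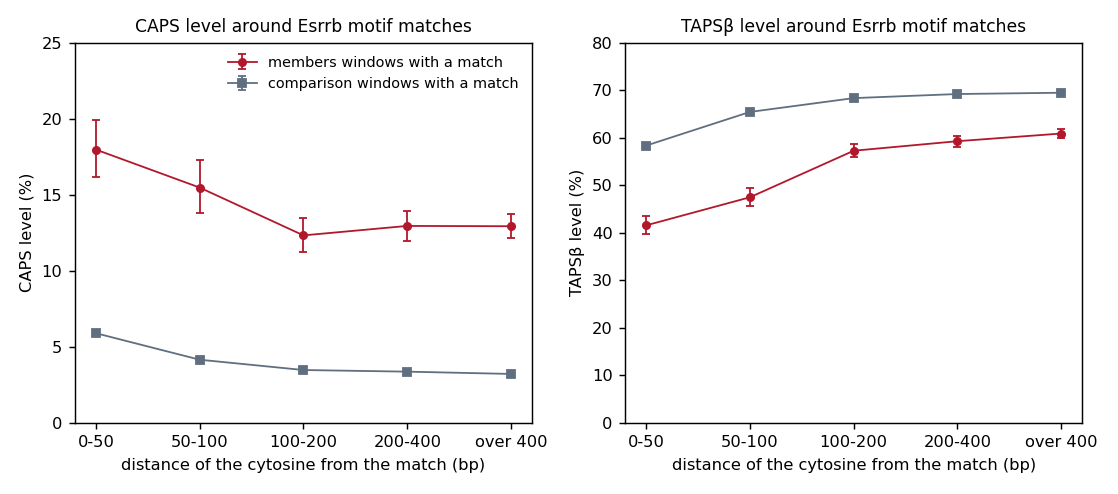
CAPS level (left, %) and TAPSβ level (right, %) of cytosines by distance (bp) from the nearest TCAAGGTCA match, in members (red) and comparison windows (gray, unweighted) that hold a match, with exact 95% intervals. CAPS is highest and TAPSβ lowest within 50 bp in both sets: 17.97% and 41.5% in members, 5.89% and 58.3% in comparison windows.

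The 3 members with most T calls of CAPS within 50 bp of the motif are shown by a stretch of the plus strand of NCBIM37, with the motif, in either direction, in capitals.
Chromosome 3 window, chr3:34696693-34696813: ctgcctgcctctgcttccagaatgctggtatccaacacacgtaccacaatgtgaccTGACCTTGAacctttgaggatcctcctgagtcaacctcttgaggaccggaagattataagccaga
Ralgps1 window, chr2:33162936-33163056: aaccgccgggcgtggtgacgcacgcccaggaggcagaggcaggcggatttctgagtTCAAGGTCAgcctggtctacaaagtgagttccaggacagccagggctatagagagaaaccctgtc
Chromosome 7 window, chr7:87238450-87238570: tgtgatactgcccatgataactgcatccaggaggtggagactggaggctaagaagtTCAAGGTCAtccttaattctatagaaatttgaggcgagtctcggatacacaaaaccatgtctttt

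On chromosome 3, in intergenic DNA 147443 bp from the nearest coding start, 20 of 49 calls within 50 bp were T (40.8%) in CAPS and 21 of 44 (47.7%) in TAPSβ, and the window as a whole read 26 of 175 (14.9%). The Ralgps1 match, in the gene of a Ral exchange factor, read 10 of 51 (19.6%) in CAPS and 37 of 115 (32.2%) in TAPSβ. On chromosome 7 the match read 10 of 54 (18.5%) and 43 of 72 (59.7%). In the Ralgps1 sequence the motif is followed by GCCTGG, as in B1, an abundant short interspersed repeat of the mouse. Matches followed by these 6 letters were in 11 members (0.435% against 0.167%), and matches without them in 108 (4.28% against 2.73%, ratio 1.57). Around the matches without them, CAPS within 50 bp was 17.9% in members and 5.86% in comparison windows. No repeat annotation was used, and B1 copies that have lost these 6 letters count as matches without them. Whether those matches lie in diverged B1 or in other repeats was not tested.

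Genes with members were many, and few had more than 1. The spans of coding genes overlapped 1378 members. Of 19067 coding genes with a candidate window, 1194 held a member, of which 1017 held 1, 142 held 2 and 35 held 3 or more. By gene length the share of candidates that were members was 0.187% under 10 kb, 0.317% from 30 to under 100 kb and 0.154% at 300 kb or more. No gene held more than 5.

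Grik4, a kainate-type glutamate receptor gene, held 5 members among 350 candidates, with CAPS from 12.2% to 13.7%, and its other candidates read 3.39%. Etl4 also held 5, among 404 candidates, with 12.05% to 16.7%, and its other candidates read 3.95%. Gm20388 held 5, but its annotated span covers 4435 kb and other genes, among them Ankrd11, and its other candidates read 3.63%. Tbl1xr1, a subunit of nuclear corepressor complexes, held 4 of 79 candidates, and the rest of its candidates read 5.84% in CAPS. Baz2b, a bromodomain gene, held 4 of 201, with 4.24% in the others. Nt5dc3, Pcmtd1 and Rbpj, the last the DNA-binding effector of Notch signals, held 3 of 37, of 41 and of 55 candidates, and their other candidates read 5.32%, 5.34% and 5.72%.

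By share, Slc25a36 came first with 2 of 13 candidates, and its other candidates read 7.89%. It was followed by 1700001K19Rik (2 of 14), Ctnnb1 (2 of 17), Csnk1a1 (2 of 18), Fam168b (2 of 19) and Mgst2 (2 of 20). Ctnnb1 codes for beta-catenin, and Csnk1a1 for a kinase of the complex that marks beta-catenin for destruction. At 1 of 10 stood 4930453N24Rik, 6030468B19Rik, Adnp and BC027072, where the share rests on 1 window and genes tied at this share were taken in the order of their names.

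Gene lists of the stem cell's regulators held from 0 to 8 members each, and their counts are described without a test. In every list but that of lineage regulators the share lay above that of equal classes. These shares rest on few windows, and in some lists on windows of 1 gene. The intervals count windows of 1 gene as independent and may be too narrow. Whether an interval includes the share in equal classes is therefore no test of a list. Over all coding genes 0.239% of 575943 candidates were members, where all candidates of equal TAPSβ and CpG number gave 0.196%. Among Polycomb and trithorax genes 8 of 578 were (1.38%, interval 0.599 to 2.71%), where candidates of the same TAPSβ and CpG number gave 0.312%. Mll5 held 3 of them (30 of 198, 28 of 208 and 27 of 220 calls), Suz12, a core subunit of PRC2, held 2 (23 of 164 and 17 of 132), Jarid2, a PRC2 cofactor, held 2 (17 of 135 and 18 of 143), and Phc1, of PRC1, held 1 (15 of 117). All 8 lay in introns. The other candidates of the list read 4.44% in CAPS, against 3.36% in candidates of equal classes.

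Genes of 5mC and its oxidation held few members in number, though their shares lay above those of equal classes. Tet1 had 2 among 44 candidates, 1 in its 3′ untranslated region (35 of 262 calls, 13.4%, with 53.3% TAPSβ) and 1 in an intron (20 of 151, 13.2%, with 68.6%), and no other gene of the TET, TDG and base excision repair list had any. Dnmt3a, a de novo methyltransferase, had 1 in its first intron (17 of 106), Uhrf2 had 1 (19 of 112) and Zbtb38, which binds methylated DNA, had 1 (23 of 172). The TET and repair list had 2 of 304 candidates (0.658%, against 0.220% in equal classes), and the methyltransferase and methyl-CpG binding list 3 of 304 (0.987% against 0.215%). The exact interval of the first, 0.0798 to 2.36%, and of the second, 0.204 to 2.86%, both include the share in equal classes.

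In the signalling lists, LIF, WNT and BMP genes had 5 of 899 candidates (0.556%, interval 0.181 to 1.29%, against 0.161% in equal classes). They were in Ctnnb1 (16 of 123 and 15 of 124 calls, both in its first intron), in Il6st, the LIF co-receptor gp130 (31 of 227), in Lrp6, a WNT co-receptor (20 of 153), and in Tcf7, a WNT effector (36 of 241). FGF, MAPK and Nodal genes had 6 of 2461 (0.244%, interval 0.0895 to 0.530%, against 0.188%), in Fgfr1 (26 of 204), Acvr2b (25 of 193) and the annotated span of Fgfr2, which covers 3009 kb and other genes and held 4. That span supplied 2096 of the 2461 candidates, so the share of this list is mostly that of other genes.

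In the list of core pluripotency factors 2 of 328 candidates were members (0.610%, interval 0.0739 to 2.19%, against 0.232% in equal classes). They were in Nr5a2 (18 of 118) and in the first intron of Smad3 (22 of 162), a signal mediator that the list includes beside core factors. CTCF and cohesin genes had 2 of 520 (0.385%, interval 0.0466 to 1.38%, against 0.177%), in Rad21 (13 of 100) and Pds5b (18 of 141). Genes of chromatin remodelling had 3 of 1356 (0.221%, interval 0.0456 to 0.645%, against 0.206%), in Arid1a (33 of 262) and Arid1b (12 of 91 and 12 of 99), subunits of BAF complexes. Imprinted genes had 2 of 505 (0.396%, interval 0.0480 to 1.42%, against 0.186%), both in Kcnq1 (18 of 135 and 21 of 162). The intervals of these 4 lists include the share in equal classes. Lineage regulators, such as Gata4 and Pax6, had 0 of 198, where the exact interval reaches 1.85% and equal classes gave 0.248%. The non-member candidates read above their equal classes in each list, from 3.12% against 2.93% in the imprinted genes to 3.85% against 2.68% in the CTCF and cohesin genes. Over all coding genes they read 3.29% against 3.11%.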

How the data were processed

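TAPSβ, CAPS and PS libraries of E14 mESC gDNA were analysed, 1 per method. The authors trimmed reads with Trim Galore 0.3.1, mapped them with BWA 0.7.12 to mm9, removed duplicates with Picard 2.3.0 and called modified CpG cytosines with asTair. For each cytosine they deposited counts of T and of C calls and the fraction of T calls, without normalization. Whether artifact-prone regions and known variants were left out of these values is not stated. Only the counts were used, and a fraction was recomputed from them; 0 columns were unassigned to a library.

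Counts were summed in windows of 1000 bp. Comparison windows were weighted by class (direct standardization), with nothing drawn at random, and no test was run. Every listed cytosine was a CpG of NCBIM37, and genes came from GENCODE. The place of a window is that of its middle. The calculations were tested on simulated data, and used Python 3.11.15, numpy 2.4.6, pandas 2.3.3, scipy 1.17.1 and matplotlib 3.10.9.

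Named were the 12 windows with the highest lower bound, the 10 genes with most members, the 10 with the highest share among genes with 10 or more candidates, and up to 4 genes per list. Genes tied in number of members were ordered by share, and those tied in share by number of members and then by name, so both lists end within ties. The members and lists were chosen with earlier results of these data known. The analyses of the motif surroundings, the B1 context and the classes of CpG number were added with the values in view. Alternatives varied read and cytosine minima, thresholds, averaging, window position and classes. Counting error sets the precision of single windows.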

Additional observations from a re-analysis of the deposited data

Results flagged for a closer look

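On the X chromosome, which the rule leaves out, 57 of 14901 candidate windows (0.383%, exact interval 0.290 to 0.495%) met every other criterion, with a median of 113 CAPS calls. This is a signal in data that no comparison above uses, and its cause was not tested. Autosomal candidates with 80 to under 120 CAPS calls gave 0.308%.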

How the results depend on the processing

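No paired analysis was possible because each method has 1 library. Of the values under the alternatives 72 stayed within the interval of the reported value (for the number of members, within 1.5 times) and 58 moved further. The intergenic ratio turned in 1 setting, and the ratio within 5 kb of a start, whose interval includes 1, also lay above 1 in a pair of settings given here. With 200 or more CAPS calls there were 555 members, with a median of 26 CpG cytosines, counted on both strands. The values were 7.22% CAPS on the unused strand, 5.08% at 1 to 2 kb and 1.44% with another member within 10 kb. The ratios were then 1.03 (introns), 1.01 (intergenic, reversed), 0.613 (within 5 kb of a start), 0.736 (over 100 kb), 1.23 (low windows), 1.54 (low windows away from starts) and 1.17 (TCAAGGTCA). With 20 or more cytosines there were 832 members, of median 24 CpG cytosines, with 7.28%, 4.93% and 2.64%. Ratios in the same order were 1.04, 0.992, 0.639, 0.843, 1.17, 1.47 and 1.20. At a CAPS threshold of 15% there were 277, of median 14, with 7.67%, 4.46% and 2.89%, and ratios of 1.29 (introns), 0.773 (intergenic), 1.12 (within 5 kb), 2.08 and 2.53 (low windows, all and away from starts) and 2.38 (TCAAGGTCA).

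Without a PS limit there were 3027 members, the levels were 6.95% and 4.70%, 10.3% had another member within 10 kb, and ratios were 1.13 (introns), 0.887 (intergenic), 0.603 (over 100 kb), 1.62 and 1.97 (low windows). With 5 or more reads per cytosine the unused strand read 6.95%, the median was 18 CpG cytosines, and low windows gave 1.61 and 1.97. Averaging cytosine levels gave 3505 members, 4.60% at 1 to 2 kb, 11.8% with another member and 1.61 and 1.96 for low windows, and shifting the windows by 500 bp gave 9.60% with another member. At equal GC content low windows gave 1.52 and 1.85 and over 100 kb 0.658. In classes of TAPSβ plus CAPS, chosen after seeing the data, the ratios were 1.20 (within 5 kb), 2.49 and 3.12 (low windows) and 2.01 (TCAAGGTCA). Fewer windows enter under the stricter minima. Why the ratios moved was not tested. Depth sets the width of a single window's interval. Settings that raise it also raise CpG number, and comparison windows of equal CAPS read number gave 1.24 (introns) and 0.521 (over 100 kb).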
